A study of Mus with 10 samples.

Results

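Mitosis genes are described here as 40 genes fixed by name, whose products condense and hold chromosomes, build the spindle, guard the start of anaphase and split the dividing cell. They were chosen with earlier results of these data known, so shares of all genes beside their counts are description, not a test. Each gene was read from the probe set with the highest mean among those annotated with its symbol alone, and 39 of the 40 had such a probe set, each gene exactly 1, among 22180 genes in all. Ccnb1, the cyclin B1 gene, was not analysed here. The genes were followed across 10 Affymetrix arrays of skin RNA from female BALB/c mice aged 7 to 8 weeks. The control group had 2 arrays. The PUVA 3D and PUVA 7D groups had 4 arrays each and carry a gap of 3 and 7 days in their labels. In PUVA, psoralen on the skin crosslinks DNA once UVA light activates it; the dose was 0.25 J/cm2, 2 times weekly over 2 weeks. The series title asks about senescence, and the protocol goes on to imiquimod, a drug used to inflame mouse skin as a model of psoriasis. Whether the arrayed skin had received imiquimod, and what the controls received, is not given in the labels, so the gap is not read here as the time from PUVA to sampling.

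Entry into mitosis is driven by the kinase Cdk1 with its A- and B-type cyclins, and by the Polo-like and Aurora kinases. Kinetochores tie chromosomes to spindle microtubules, and the spindle checkpoint holds back the anaphase-promoting complex until every chromosome is attached. Many of these genes are transcribed mainly in dividing cells, late in the cycle, under Foxm1 and the B-Myb and MuvB complex, so their RNA in a tissue is used as a sign of how many cells divide. In skin the dividing cells are mainly basal keratinocytes, the sebaceous gland's outer cells and, while hair grows, the matrix cells of the follicle bulb. In whole skin, fewer dividing cells and less RNA per cell cannot be told apart.

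The values are log2 array values as the authors deposited them. A difference of 1 is a doubling, and levels of different genes are not set against each other. The medians of the 22180 genes lay between 6.40 and 6.50 on all arrays. No mitosis gene lay below an array's lower quartile (4.49 to 4.57) on any array, and 27 of the 39 lay above the median on all 10. Skin markers were high: Krt14, a keratin of basal keratinocytes, lay at 11.76 to 12.18 over the 10 arrays. The labels do not say that arrays came from separate animals, and the p-values reflect the scatter among these arrays, part or all of which may be technical.

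The 2 controls lay far apart in these genes. The mean of the 39 genes was 7.26 in control replicate 1 and 7.72 in control replicate 2, against 7.18, 7.16, 7.21 and 7.16 in the PUVA 3D arrays and 7.17, 7.18, 7.12 and 7.02 in the PUVA 7D arrays. Control replicate 2 stood clear of all other arrays, while control replicate 1 lay just above the PUVA arrays. Control replicate 2 was higher than control replicate 1 in 38 of 39 genes (47.8% of all genes), with a median difference of 0.50 (-0.01 over all genes), and higher by over 0.5 in 20 genes (3.4% of all genes). The median SD of the mitosis genes was 0.35 in control, 0.10 in the PUVA 3D and 0.10 in the PUVA 7D group. Over all genes these SDs were 0.09, 0.13 and 0.12. The SD of the controls exceeded that of both PUVA groups in 31 mitosis genes (26.9% of all genes). Differences from control are therefore given with both controls and, for each mitosis gene, also against control replicate 1 alone. The values against control replicate 2 alone are summarised over the 39 genes. Differences of named genes from other lists are given with both controls only. The errors pool 1 spread per gene over the 3 groups. For genes with widely spaced controls they are too small for a difference from control and too large for a difference between the PUVA groups. With 1 control left out, the remaining one has no spread of its own. Sizes and directions of differences are read from those fits. Genes counted or named by p in them rest on the spread of the PUVA groups alone and are not read as a result.

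The first comparison asks how mitosis genes in PUVA 3D skin compared with control skin. All 39 lay below the control mean (49.4% of all genes did), with a median log2 difference of -0.34 (0.00 over all genes) and a range of -0.60 to -0.06. No mitosis gene passed an adjusted p of 0.05 in limma, where 0.00451% of all genes did so in this direction, and the smallest adjusted p among them was 0.312. At an unadjusted p under 0.05, 19 of 39 lay lower and 0 higher, against 4.07% lower and 5.67% higher among all genes. With control replicate 2 left out, 30 of 39 lay below control replicate 1 (50.5% of all genes), the median was -0.08 and 0 had an unadjusted p under 0.05 in the lower direction (2.99% of all genes), and 0 an adjusted p under 0.05 (0.00902% of all genes). With control replicate 1 left out, all 39 lay lower (47.2% of all genes), the median was -0.64, 30 genes lay lower at an unadjusted p under 0.05 (4.78% of all genes) and 16 at an adjusted p under 0.05 (0.744% of all genes).

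The second comparison asks the same of PUVA 7D skin, against the same 2 controls. Here 38 of 39 genes lay below the control mean (45% of all genes did), with a median log2 difference of -0.38 (0.02 over all genes) and a range of -0.74 to 0.00. No gene passed an adjusted p of 0.05 in limma among the 39 or among all genes (0%), and the smallest adjusted p of a mitosis gene was 0.71. At an unadjusted p under 0.05, 28 lay lower and 0 higher, against 2.68% lower and 3.21% higher among all genes. Without control replicate 2, 37 of 39 lay below control replicate 1 (47.6% of all genes), the median was -0.13, and Bub1 and Top2a were the 2 genes with an unadjusted p under 0.05 (1% of all genes in the lower direction), while 0 passed an adjusted p of 0.05 (0.00451% of all genes). Without control replicate 1, 38 lay lower (44.7% of all genes) and the median was -0.64, with 33 genes lower at an unadjusted p under 0.05 (4.78% of all genes) and 18 at an adjusted p under 0.05 (0.884% of all genes).

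Mki67 encodes Ki-67, which coats mitotic chromosomes and is the common stain for dividing cells, and Top2a the topoisomerase that untangles sister DNA. Mki67 had values of 9.74 and 10.24 in the controls, 9.50, 9.54, 9.62 and 9.55 in the PUVA 3D arrays and 9.62, 9.69, 9.57 and 9.55 in the PUVA 7D arrays. Both controls lay above all 8 PUVA arrays, and the 2 PUVA groups overlapped. The log2 difference of Mki67 from control was -0.44 ± 0.12 (SE, 95% interval -0.71 to -0.17, adjusted p = 0.319) in PUVA 3D skin, or 1.36-fold lower, and -0.39 ± 0.12 (adjusted p = 0.763) in PUVA 7D skin. Against control replicate 1 alone it was -0.19 and -0.13. Top2a had 8.32 and 8.82 in the controls, 8.19, 8.18, 8.15 and 8.14 in the PUVA 3D and 8.12, 8.16, 8.03 and 7.97 in the PUVA 7D arrays. All 8 PUVA arrays lay below both controls, and the PUVA 3D arrays lay close together. The log2 difference of Top2a was -0.40 ± 0.12 (adjusted p = 0.374) and -0.50 ± 0.12 (95% interval -0.77 to -0.23, adjusted p = 0.748), and -0.15 and -0.24 against control replicate 1 alone.

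**Figure D1:**
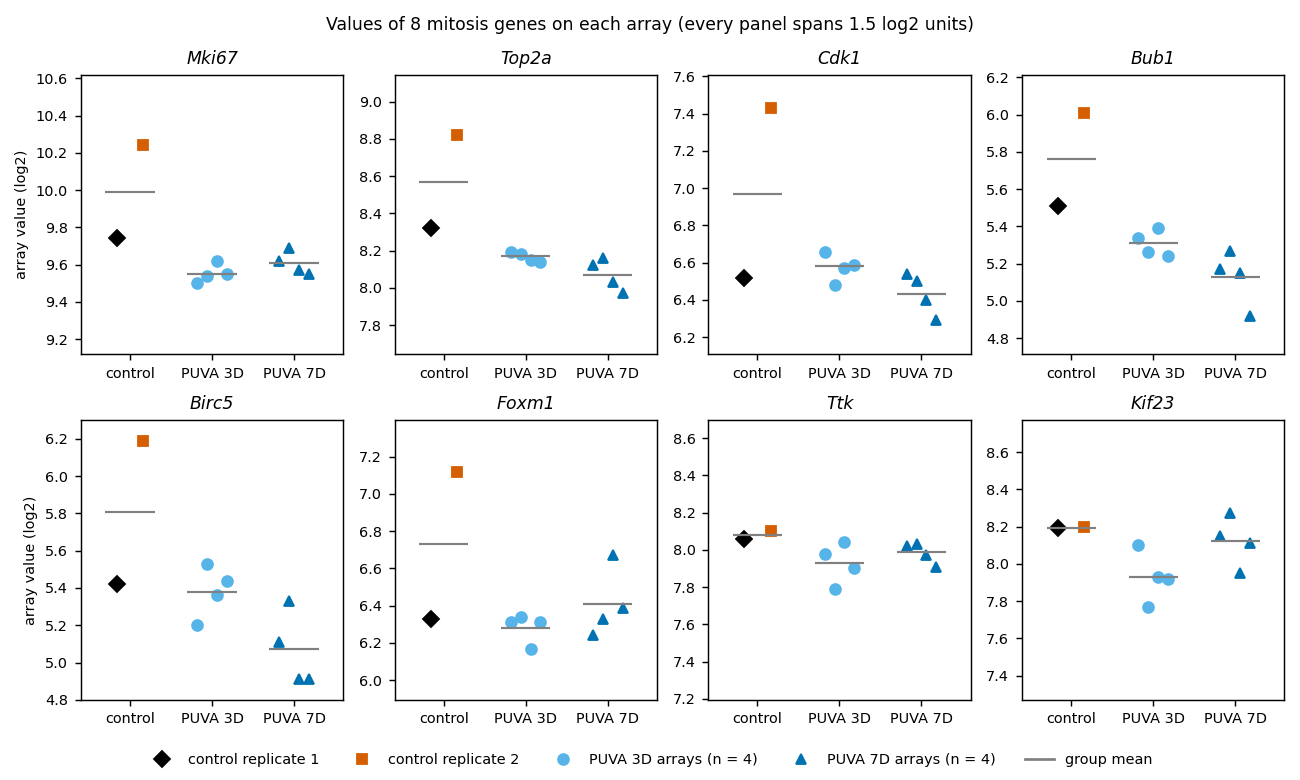
Array values (log2, vertical axes of equal span) of 8 mitosis genes in the control, PUVA 3D and PUVA 7D groups; each marker is an array and each grey line a group mean. Control replicate 2 is the highest array for Mki67, Top2a, Cdk1, Bub1, Birc5, Foxm1 and Ttk, while the controls differ by 0.05 in Ttk and 0.02 in Kif23.

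Of the cyclins, kinases and their regulator, 8 were measured. All 8 lay below control in both PUVA groups (49.4% of all genes in PUVA 3D and 45% in PUVA 7D skin). The median log2 differences were -0.37 in PUVA 3D and -0.43 in PUVA 7D skin. In limma, 3 and 6 had an unadjusted p under 0.05, where 4.07% and 2.68% of all genes lay lower at that p. Against control replicate 1 alone the role's medians were -0.04 and -0.11, and 5 and 6 of 8 lay below control (50.5% and 47.6% of all genes). Cdk1, the kinase that starts mitosis, had 6.52 and 7.43 in the controls, 6.66, 6.48, 6.57 and 6.59 in the PUVA 3D and 6.54, 6.50, 6.40 and 6.29 in the PUVA 7D arrays. Its controls were the farthest apart of all 39 genes, 1.88-fold, and control replicate 1 lay inside the range of the PUVA 3D arrays and under the highest PUVA 7D array. The log2 difference of Cdk1 was -0.40 ± 0.19 (adjusted p = 0.543) and -0.54 ± 0.19 (adjusted p = 0.784). Against control replicate 1 alone it was 0.06 and -0.09, the former with the direction turned. Plk1, the Polo-like kinase of spindle poles and kinetochores, had 7.29 and 8.12 in the controls, 7.44, 7.47, 7.61 and 7.41 in the PUVA 3D and 7.28, 7.22, 7.49 and 7.18 in the PUVA 7D arrays. Every PUVA 3D array lay above control replicate 1, and the fitted log2 difference of -0.22 ± 0.19 became 0.19 without control replicate 2. In PUVA 7D skin it was -0.41 ± 0.19, and 0.00 without that control.

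Foxm1 encodes the transcription factor that switches on many of the other genes. It had 6.33 and 7.12 in the controls, 6.31, 6.34, 6.17 and 6.31 in the PUVA 3D and 6.24, 6.33, 6.67 and 6.39 in the PUVA 7D arrays. PUVA 7D replicate 3 was the highest PUVA array, and control replicate 1 lay among the others. The log2 differences were -0.45 ± 0.19 and -0.32 ± 0.19 (adjusted p = 0.493 and 0.909), and -0.05 and 0.08 against control replicate 1 alone, the latter with the direction turned. Melk, a kinase gene that is active in dividing and progenitor cells, had 6.49 and 7.24 in the controls, 6.11, 6.41, 6.35 and 6.21 in the PUVA 3D and 6.26, 6.30, 6.36 and 6.12 in the PUVA 7D arrays. All 8 PUVA arrays lay below both controls. Its log2 differences, -0.60 ± 0.17 (adjusted p = 0.351) and -0.61 ± 0.17 (adjusted p = 0.748), compare with -0.22 and -0.23 against control replicate 1 alone.

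Aurka encodes the Aurora kinase of spindle poles. It had 7.10 and 7.16 in the controls, 6.90, 7.07, 7.02 and 6.90 in the PUVA 3D and 7.01, 6.86, 6.89 and 6.82 in the PUVA 7D arrays. The controls differed by 0.07, and the PUVA arrays all lay below them. Its log2 differences of -0.16 ± 0.09 and -0.23 ± 0.09 (adjusted p = 0.599 and 0.784) moved little when control replicate 2 was left out, to -0.12 and -0.20. The cyclin genes Ccna2 and Ccnb2 and the centrosome kinase gene Nek2 had log2 differences of -0.48 ± 0.17, -0.34 ± 0.16 and -0.23 ± 0.12 in PUVA 3D skin, and -0.54 ± 0.17, -0.45 ± 0.16 and -0.33 ± 0.12 in PUVA 7D skin. Against control replicate 1 alone they were -0.13, 0.03 and -0.03 in PUVA 3D skin, with the direction of Ccnb2 turned, and -0.19, -0.08 and -0.13 in PUVA 7D skin. Pseudogenes of Ccnb2 and of Aurkb are annotated, so the values of both genes are uncertain to that extent.

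The spindle checkpoint was read from Bub1, Bub1b (BubR1) and Ttk (Mps1), which encode kinases or kinase-like proteins that halt anaphase at unattached kinetochores. Bub1 had 5.51 and 6.01 in the controls, 5.34, 5.26, 5.39 and 5.24 in the PUVA 3D and 5.17, 5.27, 5.15 and 4.92 in the PUVA 7D arrays. Every PUVA array lay below both controls, with PUVA 7D replicate 4 lowest. The log2 difference was -0.46 ± 0.14 (adjusted p = 0.364) in PUVA 3D and -0.63 ± 0.14 (95% interval -0.94 to -0.33, adjusted p = 0.71) in PUVA 7D skin, and -0.20 and -0.38 against control replicate 1 alone. Its p was the smallest of the 39 genes in PUVA 7D skin. Bub1b, with the smallest p in PUVA 3D skin, had 6.70 and 7.07 in the controls, 6.42, 6.42, 6.52 and 6.55 in the PUVA 3D and 6.52, 6.47, 6.51 and 6.34 in the PUVA 7D arrays. Its 8 PUVA arrays spanned 6.34 to 6.55, below both controls. The log2 differences of Bub1b were -0.40 ± 0.11 (95% interval -0.64 to -0.16, adjusted p = 0.312) and -0.42 ± 0.11 (adjusted p = 0.748), and -0.22 and -0.23 against control replicate 1 alone.

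Ttk had 8.06 and 8.10 in the controls, 7.98, 7.79, 8.04 and 7.90 in the PUVA 3D and 8.02, 8.03, 7.97 and 7.91 in the PUVA 7D arrays. Its controls lay 0.05 apart, and all 8 PUVA arrays lay below them. The log2 differences were small, -0.15 ± 0.09 and -0.09 ± 0.09 (adjusted p = 0.615 and 0.955), and were -0.13 and -0.07 without control replicate 2.

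The anaphase-promoting complex marks cyclin B and securin for destruction. Its activator gene Cdc20 had 7.65 and 7.95 in the controls, 7.74, 7.46, 7.83 and 7.57 in the PUVA 3D and 7.61, 7.49, 7.45 and 7.44 in the PUVA 7D arrays. The PUVA 7D arrays all lay below control replicate 1, and the PUVA 3D arrays spread to both sides of it. The log2 differences of Cdc20 were -0.15 ± 0.12 and -0.30 ± 0.12 (adjusted p = 0.751 and 0.822), and 0.00 and -0.15 against control replicate 1 alone. Ube2c, the ubiquitin-conjugating enzyme of that complex, had 7.29 and 7.82 in the controls, 7.36, 7.33, 7.47 and 7.21 in the PUVA 3D and 7.26, 7.25, 7.16 and 7.04 in the PUVA 7D arrays. As with Cdc20, control replicate 1 lay inside the PUVA 3D range and above the PUVA 7D arrays. Ube2c had log2 differences of -0.21 ± 0.14 and -0.38 ± 0.14 (adjusted p = 0.674 and 0.784), which were 0.05 and -0.12 without control replicate 2, the former with the direction turned. Cdca3, which helps degrade a mitosis inhibitor, had -0.38 ± 0.14 and -0.38 ± 0.14, with all PUVA arrays below both controls, and -0.18 and -0.18 without control replicate 2.

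The chromosomal passenger complex corrects faulty attachments and later guides cytokinesis. Its kinase gene Aurkb had 7.41 and 8.28 in the controls, 7.34, 7.57, 7.60 and 7.52 in the PUVA 3D and 7.29, 7.20, 7.51 and 7.36 in the PUVA 7D arrays. Only control replicate 2 stood above the PUVA arrays. Aurkb had log2 differences of -0.34 ± 0.19 and -0.51 ± 0.19 (adjusted p = 0.625 and 0.803), and 0.10 and -0.07 against control replicate 1 alone, the former with the direction turned. Birc5, the survivin gene, had 5.42 and 6.19 in the controls, 5.20, 5.53, 5.36 and 5.44 in the PUVA 3D and 5.11, 5.33, 4.91 and 4.91 in the PUVA 7D arrays. The PUVA 7D arrays all lay below both controls, while PUVA 3D replicates 2 and 4 lay above control replicate 1. The log2 difference of Birc5 in PUVA 7D skin, -0.74 ± 0.20 (95% interval -1.17 to -0.30, adjusted p = 0.748), or 1.67-fold lower, was the largest of the 39 genes, and it was -0.35 without control replicate 2. In PUVA 3D skin it was -0.42 ± 0.20 (adjusted p = 0.525), and -0.03 without that control. Cdca8, the borealin gene, had -0.23 ± 0.11 and -0.27 ± 0.11, and -0.10 and -0.14 without control replicate 2.

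Among 5 kinetochore genes the median log2 difference was -0.23 in PUVA 3D and -0.33 in PUVA 7D skin, with 1 gene in each, Cenpe, at an unadjusted p under 0.05 (4.07% and 2.68% of all genes in the lower direction). The medians without control replicate 2 were -0.01 and -0.02. Cenpe, a motor that carries chromosomes to the spindle's middle, had 7.38 and 7.85 in the controls, 7.19, 7.15, 7.29 and 7.20 in the PUVA 3D and 7.22, 7.34, 7.24 and 7.14 in the PUVA 7D arrays. Both controls lay above all PUVA arrays, control replicate 1 by 0.04 over the highest. The log2 differences were -0.40 ± 0.12 (adjusted p = 0.354) and -0.38 ± 0.12 (adjusted p = 0.763), and -0.17 and -0.14 against control replicate 1 alone. Ndc80, whose protein grips the microtubule, had 7.29 and 8.07 in the controls, 7.33, 7.52, 7.12 and 7.37 in the PUVA 3D and 7.37, 7.06, 7.42 and 7.31 in the PUVA 7D arrays. Control replicate 1 lay under 6 of the 8 PUVA arrays. Ndc80 had log2 differences of -0.35 ± 0.19 and -0.39 ± 0.19 (adjusted p = 0.605 and 0.875), which were 0.04 and 0.00 without control replicate 2, the former with the direction turned. Its partners Nuf2 and Spc25 had -0.23 ± 0.13 and -0.22 ± 0.15 in PUVA 3D skin and -0.24 ± 0.13 and -0.33 ± 0.15 in PUVA 7D skin. Against control replicate 1 alone they had -0.05 and 0.09 in PUVA 3D skin, with the direction of Spc25 turned, and -0.06 and -0.02 in PUVA 7D skin. Cenpf, a large protein of the outer kinetochore, had -0.11 ± 0.11 and -0.12 ± 0.11, and -0.01 and -0.02 without control replicate 2.

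Among 9 genes of spindle motors and microtubule proteins the median log2 difference was -0.38 in PUVA 3D skin (6 with an unadjusted p under 0.05) and -0.35 in PUVA 7D skin (8 with such a p), against 4.07% and 2.68% of all genes. The medians became -0.04 and -0.13 without control replicate 2. Kif11, the motor that pushes spindle poles apart, had 7.55 and 8.13 in the controls, 7.34, 7.32, 7.39 and 7.55 in the PUVA 3D and 7.36, 7.39, 7.20 and 7.27 in the PUVA 7D arrays. PUVA 3D replicate 4 equalled control replicate 1 to 2 decimals, and the other PUVA arrays lay below both controls. Its log2 differences were -0.44 ± 0.14 (adjusted p = 0.394) and -0.53 ± 0.14 (adjusted p = 0.748), and -0.15 and -0.24 against control replicate 1 alone. Tpx2, which activates Aurora A on the spindle, had 7.62 and 8.33 in the controls, 7.63, 7.50, 7.66 and 7.60 in the PUVA 3D and 7.60, 7.61, 7.63 and 7.39 in the PUVA 7D arrays. Control replicate 1 lay among the PUVA arrays, and PUVA 7D replicate 4 was apart below the other 3 arrays of its group. Tpx2 had log2 differences of -0.38 ± 0.16 and -0.42 ± 0.16 (adjusted p = 0.493 and 0.803), which were -0.03 and -0.07 without control replicate 2.

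Kif4, a chromosome-arm kinesin gene, had 6.61 and 7.10 in the controls, 6.52, 6.36, 6.27 and 6.51 in the PUVA 3D and 6.60, 6.48, 6.44 and 6.49 in the PUVA 7D arrays. All 8 PUVA arrays lay below both controls, PUVA 7D replicate 1 by 0.01. A pseudogene, Kif4-ps, is annotated, and whether the probe set tells it apart was not tested. The log2 differences of Kif4 were -0.44 ± 0.13 (adjusted p = 0.352) and -0.35 ± 0.13 (adjusted p = 0.786), and -0.20 and -0.11 against control replicate 1 alone. Hmmr, a spindle assembly gene, had 6.41 and 6.64 in the controls, 6.41, 6.27, 6.51 and 6.36 in the PUVA 3D and 6.38, 6.39, 6.18 and 6.19 in the PUVA 7D arrays. Its control replicate 1 lay inside the PUVA 3D range and above all PUVA 7D arrays. Hmmr had log2 differences of -0.14 ± 0.11 and -0.24 ± 0.11 (adjusted p = 0.736 and 0.833), which were -0.02 and -0.13 without control replicate 2.

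Kif18a, a motor that dampens chromosome oscillation, had the smallest log2 difference in PUVA 3D skin, -0.06 ± 0.12 (0.04 without control replicate 2), and -0.22 ± 0.12 in PUVA 7D skin (-0.13 without that control). Its values were 6.63 and 6.82 in the controls, 6.66, 6.74, 6.50 and 6.76 in the PUVA 3D and 6.67, 6.38, 6.64 and 6.32 in the PUVA 7D arrays. PUVA 7D replicates 2 and 4 lay lowest, and control replicate 1 lay inside both PUVA ranges. The other 4 genes of the role are Kif2c, a microtubule depolymerase, Kif15, a second pole-separating motor, and the spindle proteins Nusap1 and Dlgap5. In that order they had -0.41 ± 0.14, -0.38 ± 0.16, -0.21 ± 0.10 and -0.25 ± 0.11 in PUVA 3D skin. In PUVA 7D skin they had -0.52 ± 0.14, -0.45 ± 0.16, -0.29 ± 0.10 and -0.35 ± 0.11. Against control replicate 1 alone all 4 differences were smaller, at -0.15, -0.02, -0.04 and -0.15 in PUVA 3D and -0.26, -0.09, -0.12 and -0.24 in PUVA 7D skin.

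Cytokinesis genes were the role in which the controls lay closest, with means of the 6 genes of 8.15 and 8.39. Their median log2 difference was -0.27 in PUVA 3D skin (4 of 6 with an unadjusted p under 0.05) and -0.23 in PUVA 7D skin (3 of 6), against 4.07% and 2.68% of all genes. Leaving out control replicate 2 gave medians of -0.13 and -0.10. Kif23, a subunit of the centralspindlin complex that bundles the midzone, had 8.19 and 8.20 in the controls, 8.10, 7.77, 7.93 and 7.92 in the PUVA 3D and 8.15, 8.27, 7.95 and 8.11 in the PUVA 7D arrays. The PUVA 3D arrays lay below both controls, and PUVA 7D replicate 2 lay above both. Kif23 had log2 differences of -0.27 ± 0.11 (adjusted p = 0.481) and -0.07 ± 0.11 (adjusted p = 0.972), and -0.26 and -0.07 without control replicate 2. Its controls were the closest of the 39 genes. Racgap1, the partner of Kif23 in that complex, had -0.39 ± 0.14 and -0.41 ± 0.14, with the controls 0.61 apart, and -0.08 and -0.10 without control replicate 2.

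Prc1, the crosslinker of midzone microtubules, had 8.40 and 8.66 in the controls, 8.39, 8.12, 8.31 and 8.16 in the PUVA 3D and 8.29, 8.38, 8.17 and 8.07 in the PUVA 7D arrays. All PUVA arrays lay below both controls, the highest by 0.01. Its log2 differences were -0.28 ± 0.12 and -0.30 ± 0.12 (adjusted p = 0.493 and 0.808), and -0.15 and -0.17 against control replicate 1 alone. Ect2, which switches on RhoA at the cleavage furrow, had 8.84 and 8.95 in the controls, 8.81, 8.57, 8.77 and 8.82 in the PUVA 3D and 8.95, 8.92, 8.57 and 8.55 in the PUVA 7D arrays. The PUVA 7D arrays spread over the range of the controls and below it. Ect2 had log2 differences of -0.15 ± 0.13 and -0.15 ± 0.13 (adjusted p = 0.771 and 0.953), and -0.10 and -0.10 without control replicate 2. Kif20a, a motor that delivers Plk1 and Aurora B to the midzone, had 7.52 and 8.12 in the controls, 7.37, 7.51, 7.56 and 7.40 in the PUVA 3D and 7.37, 7.20, 7.31 and 7.16 in the PUVA 7D arrays. The PUVA 7D arrays lay below both controls, and PUVA 3D replicate 3 above control replicate 1. Kif20a had log2 differences of -0.36 ± 0.14 (adjusted p = 0.477) and -0.56 ± 0.14 (95% interval -0.88 to -0.24, adjusted p = 0.748), which were -0.06 and -0.26 without control replicate 2. Anln, the anillin gene of the contractile ring, was the gene in which control replicate 2, at 8.33, lay below control replicate 1, at 8.48. Its log2 differences were -0.11 ± 0.10 and 0.00 ± 0.10, and -0.18 and -0.07 against control replicate 1 alone. Against control replicate 2 alone they were -0.03 and 0.08.

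**Figure D2:**
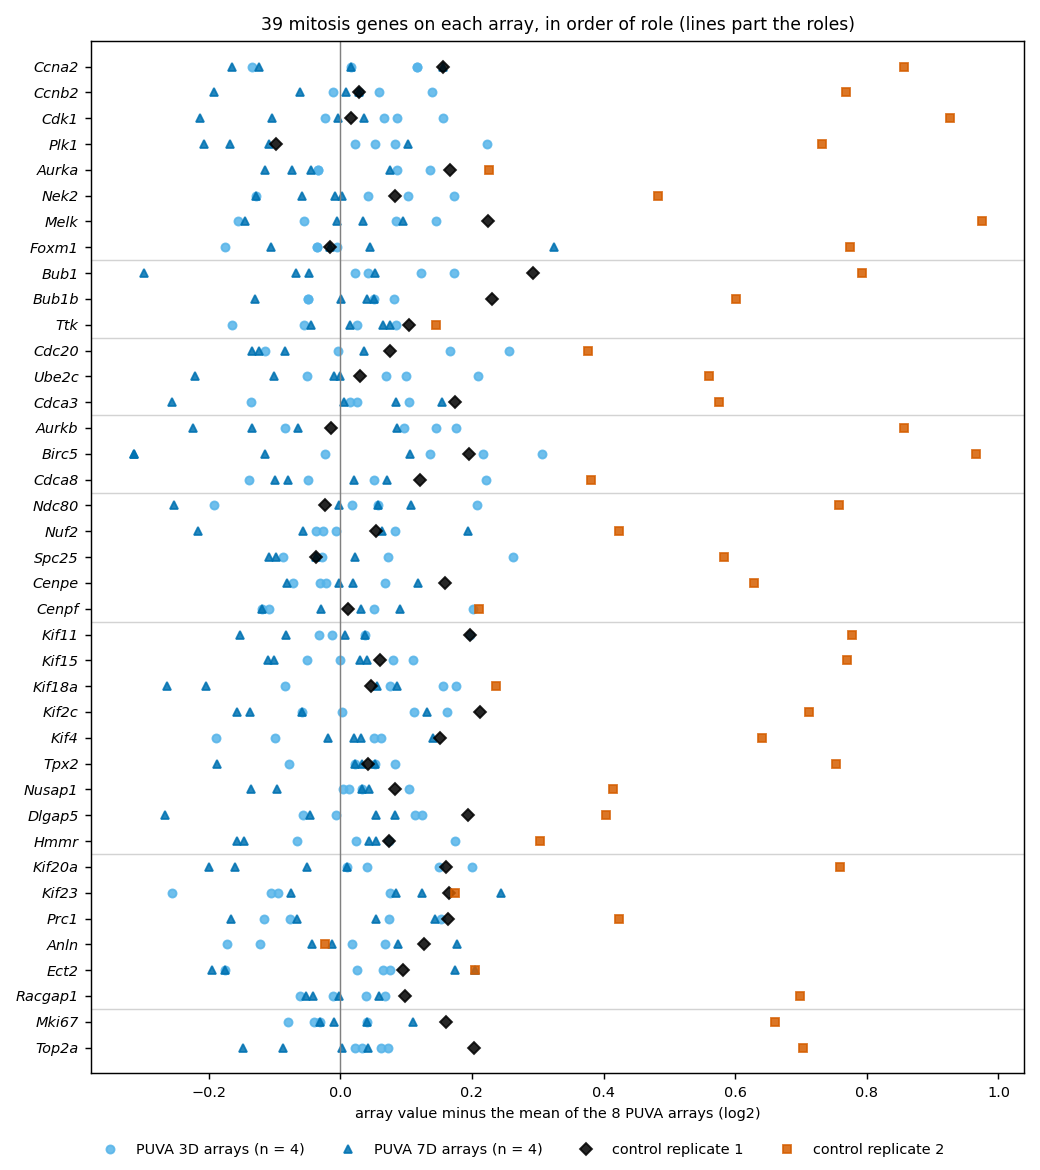
Value of each of the 39 mitosis genes on each array minus the gene's mean over the 8 PUVA arrays (log2), with genes in the order of their roles. Control replicate 2 lies above all 8 PUVA arrays in 37 genes and control replicate 1 in 15.

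Each control was also set against the 8 PUVA arrays without averaging the controls. Control replicate 2 lay above all 8 PUVA arrays in 37 of 39 genes, against 12.2% of all genes, below all 8 in 0 (13.9% of all genes) and inside their range in Kif23 and Anln, 2 genes (73.9% of all genes). Control replicate 1 lay above all 8 in 15 genes, against 8.32% of all genes, below all 8 in 0 genes (9.14% of all genes) and inside their range in 24 (82.5% of all genes). The 15 genes were Ccna2, Aurka, Melk, Bub1, Bub1b, Ttk, Cdca3, Cenpe, Kif2c, Kif4, Dlgap5, Prc1, Racgap1, Mki67 and Top2a. In these 15 every PUVA array lay below both controls, which held for 2.22% of all genes. The reverse, every PUVA array above both controls, held for 0 of the 39 and for 2.95% of all genes. With each array centred on its median, the 15 became 12 and the 37 became 34.

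The margin by which control replicate 1 lay above the PUVA arrays was small in these genes. Its distance from the mean of the 8 PUVA arrays was largest in Bub1, at 0.29, and was 0.23 in Melk, 0.23 in Bub1b, 0.20 in Top2a and 0.16 in Mki67. It was below 0 in Plk1, Foxm1, Aurkb, Ndc80 and Spc25, the lowest being Plk1 at -0.10. For control replicate 2 the same distance ran from -0.02 in Anln to 0.98 in Melk, and was 0.97 in Birc5 and 0.92 in Cdk1. By group, control replicate 1 lay above all 4 PUVA 3D arrays in 18 genes (20.6% of all genes) and above all 4 PUVA 7D arrays in 26 (15.3% of all genes). For control replicate 2 these counts were 38 (20.5% of all genes) and 37 (20.2% of all genes). All 4 PUVA 3D arrays lay below both controls in 17 genes (7.89% of all genes), and all 4 PUVA 7D arrays in 26 (5.85% of all genes).

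**Figure D3:**
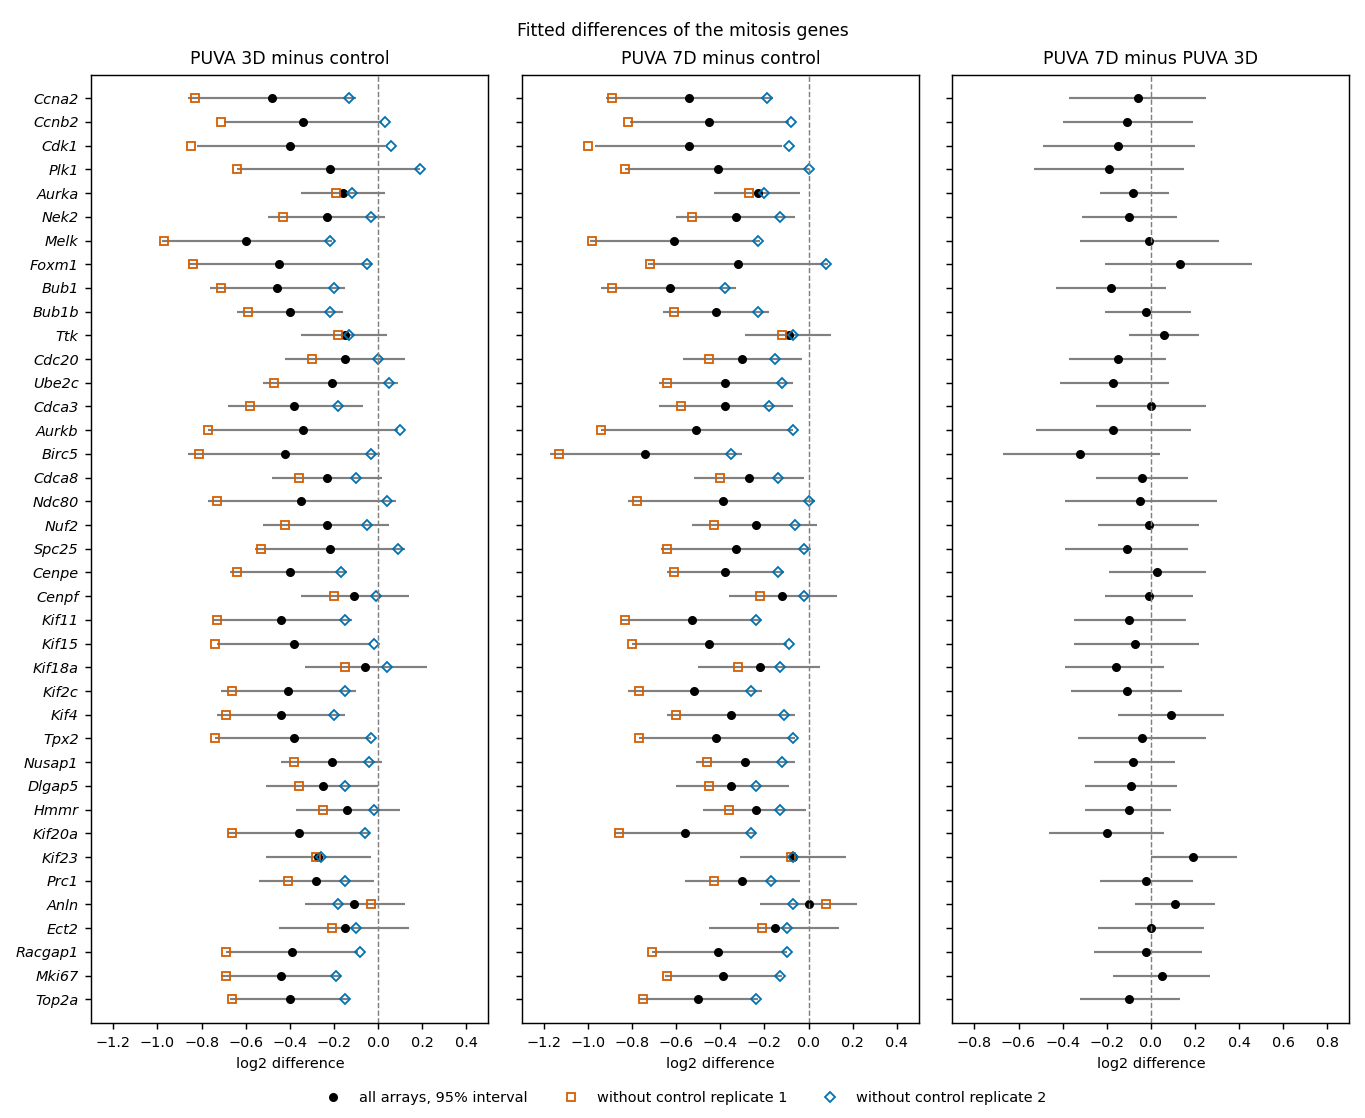
Fitted log2 differences of the 39 mitosis genes in 3 comparisons (black points, with 95% intervals in grey), and in the comparisons with control also without control replicate 1 (squares) or 2 (diamonds). Without control replicate 2 the values lie near 0, with medians of -0.08 and -0.13, and without control replicate 1 both medians are -0.64.

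The third comparison, PUVA 7D against PUVA 3D skin, does not use the controls as a reference, but its error does hold their spread. The median log2 difference was -0.07 (0.01 over all genes), 31 of 39 genes lay lower in PUVA 7D skin (46.8% of all genes), and the range was -0.32 to 0.19. The count of 31 became 27 with quantile normalization and 24 with each array centred on its median. No mitosis gene had an adjusted p under 0.05 in limma (0.00451% of all genes in each direction), and 0 had an unadjusted p under 0.05 (4.43% of all genes lower and 5.33% higher). No gene had its 4 PUVA 7D arrays all below or all above the PUVA 3D arrays, which held for 2.28% and 2.95% of all genes. The smallest p belonged to Kif23, at a log2 difference of 0.19 ± 0.09 (95% interval 0.00 to 0.39, adjusted p = 0.518 in limma), higher in PUVA 7D skin. Next came Birc5 at -0.32 ± 0.16 (95% interval -0.67 to 0.04), Kif20a at -0.20 ± 0.12 (-0.46 to 0.06), Kif18a at -0.16 ± 0.10 (-0.39 to 0.06) and Bub1 at -0.18 ± 0.11 (-0.43 to 0.07). All 4 lay lower in PUVA 7D skin, with adjusted p of 0.548 to 0.638 in limma. In Birc5, PUVA 7D replicates 1, 3 and 4 lay below all PUVA 3D arrays, and replicate 2, at 5.33, lay above PUVA 3D replicate 1, at 5.20. Fitted on the 8 PUVA arrays alone, the differences kept their size and no error of the 39 genes was larger to 2 decimals. The interval of Kif23 was slightly wider in that fit, at -0.01 to 0.40. Birc5 had -0.32 ± 0.11 (SE, 95% interval -0.57 to -0.07, adjusted p = 0.426 in limma) and Kif20a -0.20 ± 0.08 (-0.37 to -0.03, adjusted p = 0.462). Birc5 and Kif20a were the 2 genes with an unadjusted p under 0.05 in that fit, both lower in PUVA 7D skin, where 4.51% of all genes lay lower at that p. Mki67 had 0.05 ± 0.07 (-0.09 to 0.20), Top2a -0.10 ± 0.07 (-0.24 to 0.05) and Cdk1 -0.15 ± 0.08 (-0.32 to 0.02) in the same fit. Of the cytokinesis genes 3 lay higher and 3 lower, with a median of -0.01, while the passenger complex genes had a median of -0.17.

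Other genes of the division cycle were read from lists that share no gene with the 39. Of 45 other mitosis genes, 41 lay below control in PUVA 3D skin (49.4% of all genes), with a median of -0.25. In PUVA 7D skin 44 did (45% of all genes), with a median of -0.30. At an unadjusted p under 0.05 in limma, 16 and 27 lay lower (4.07% and 2.68% of all genes) and 0 higher (5.67% and 3.21%). None passed an adjusted p of 0.05 in limma, and against control replicate 1 alone the medians came to -0.03 and -0.07. Without control replicate 1 the medians were -0.48 and -0.53. Depdc1a, which is high in dividing cells, had 5.65 and 6.31 in the controls, 5.61, 5.52, 5.29 and 5.32 in the PUVA 3D and 5.31, 5.33, 5.14 and 5.17 in the PUVA 7D arrays, with a log2 difference of -0.74 ± 0.16 (SE) in the latter (adjusted p = 0.71). All its PUVA arrays lay below both controls. Kif14, a cytokinesis motor gene, had -0.75 ± 0.17 in PUVA 7D skin (adjusted p = 0.71), and Cdc25c, the phosphatase that activates Cdk1, -0.51 ± 0.14 in PUVA 3D and -0.53 ± 0.14 in PUVA 7D skin.

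DNA replication genes come earlier in the cycle than mitosis genes. Of 33 measured, 32 lay below control in PUVA 3D skin (49.4% of all genes), with a median of -0.30. In PUVA 7D skin all 33 did (45% of all genes), with a median of -0.42. At an unadjusted p under 0.05 in limma, 10 and 21 lay lower (4.07% and 2.68% of all genes) and 0 higher (5.67% and 3.21%). None had an adjusted p under 0.05. Without control replicate 2 the medians were 0.01 and -0.08, the former with the direction turned. Without control replicate 1 they were -0.65 and -0.73. Their means were 7.08 and 7.75 in the controls, 7.01 to 7.23 in the PUVA 3D and 6.88 to 7.08 in the PUVA 7D arrays. Pcna, the sliding clamp of DNA polymerase, had 9.80 and 10.09 in the controls, 9.69, 9.90, 9.76 and 9.85 in the PUVA 3D and 9.82, 9.68, 9.64 and 9.61 in the PUVA 7D arrays, with log2 differences of -0.15 ± 0.11 and -0.26 ± 0.11 (SE). Control replicate 1 lay inside the PUVA ranges. Gins1, a helicase subunit gene, had 5.28 and 6.04 in the controls, 4.96, 5.13, 5.13 and 5.07 in the PUVA 3D and 5.13, 5.05, 4.86 and 4.89 in the PUVA 7D arrays. Every PUVA array of Gins1 lay below both controls, and its log2 differences were -0.59 ± 0.17 and -0.68 ± 0.17 (adjusted p = 0.349 and 0.748).

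The 33 genes that regulate the cycle were mixed. In PUVA 3D skin 22 lay below control (49.4% of all genes) and 11 above, with a median of -0.05. In PUVA 7D skin 23 lay below (45% of all genes) and 10 above, with a median of -0.10. At an unadjusted p under 0.05, 7 lay lower and 1 higher in PUVA 3D skin, and 8 lower and 1 higher in PUVA 7D skin (of all genes 4.07% and 5.67%, and 2.68% and 3.21%), none of them past an adjusted p of 0.05 in limma. Without control replicate 1 the medians were -0.17 and -0.13. Leaving out control replicate 2 instead gave medians of 0.01 and 0.00. The list's mean was 8.23 in control replicate 2 and 7.96 to 8.07 on the other 9 arrays. Cdkn1a, the p21 inhibitor that p53 induces, had 10.98 and 10.62 in the controls, 10.98, 10.62, 11.03 and 10.84 in the PUVA 3D and 10.93, 10.86, 10.99 and 10.80 in the PUVA 7D arrays. The 3 groups overlapped, with log2 differences of 0.07 ± 0.13 and 0.10 ± 0.13 (SE). Cdkn1c, the p57 inhibitor, had 5.76 and 5.68 in the controls, 6.96, 6.11, 6.30 and 6.59 in the PUVA 3D and 5.94, 6.19, 6.19 and 6.42 in the PUVA 7D arrays. Every PUVA array of Cdkn1c lay above both controls, with a log2 difference of 0.77 ± 0.20 (adjusted p = 0.306) in PUVA 3D skin. Ccnd1, the cyclin D1 gene of early growth phase, had 8.91 and 9.34 in the controls, 8.61, 8.89, 8.48 and 8.75 in the PUVA 3D and 8.67, 8.78, 8.74 and 8.69 in the PUVA 7D arrays. Its PUVA arrays all lay below both controls, though PUVA 3D replicate 2, at 8.89, was just under control replicate 1, at 8.91. The log2 differences of Ccnd1 were -0.45 ± 0.13 and -0.41 ± 0.13 (adjusted p = 0.362 and 0.763 in limma).

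**Figure D4:**
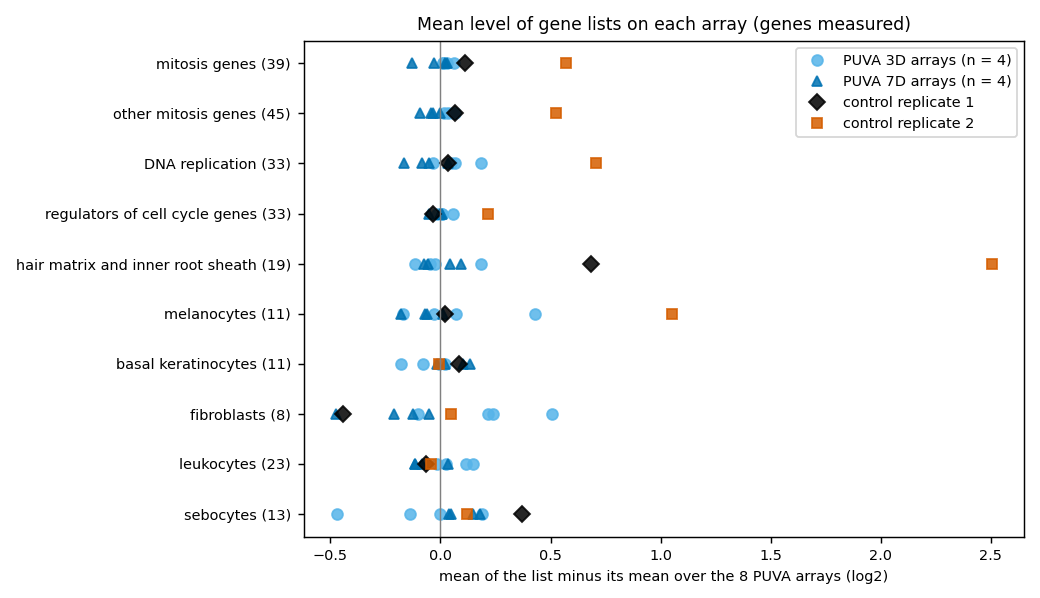
Mean of each gene list on each array minus its mean over the 8 PUVA arrays (log2), with the number of measured genes in parentheses. Control replicate 2 stands apart above the other arrays in the mitosis, other mitosis, replication, regulator, hair and melanocyte lists and lies among the other arrays in the basal keratinocyte and leukocyte lists.

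Marker lists of cells in skin differed in how far they followed the pattern of the mitosis genes. The 19 measured genes of the hair matrix and inner root sheath had means of 6.43 and 8.25 in the controls, 5.63 to 5.93 in the PUVA 3D and 5.67 to 5.84 in the PUVA 7D arrays. Control replicate 2 had the highest mean, as in the mitosis genes, and here the mean of control replicate 1 also stood clear of the PUVA arrays. This did not hold for every gene of the list: in Gata3 and Foxn1 both controls lay inside the range of the PUVA arrays. In this list 19 of 19 lay below control in PUVA 3D and 18 of 19 in PUVA 7D skin (49.4% and 45% of all genes). In limma, 15 of them in each had an unadjusted p under 0.05 (4.07% and 2.68% of all genes lower). None passed an adjusted p of 0.05 in limma with both controls. Without control replicate 1 the medians were -1.58 and -1.57, and without control replicate 2 they were -0.24 and -0.29. Krt71, a keratin of the inner root sheath, had 8.04 and 11.47 in the controls, 4.36, 4.54, 5.60 and 4.76 in the PUVA 3D and 4.92, 3.85, 5.14 and 4.93 in the PUVA 7D arrays. The melanocyte list, 11 genes, had 6.10 and 7.13 in the controls, 5.91 to 6.51 in the PUVA 3D and 5.90 to 6.09 in the PUVA 7D arrays. Control replicate 2 was again apart, and control replicate 1 lay inside the PUVA 3D range. Of these 11 genes 8 lay below control in PUVA 3D and 9 in PUVA 7D skin (49.4% and 45% of all genes). In limma, 2 and 5 of them lay lower at an unadjusted p under 0.05 (4.07% and 2.68% of all genes). Without control replicate 2, 3 and 6 of 11 lay below control (50.5% and 47.6% of all genes). The medians were then 0.05 and 0.00, the former with the direction turned. Without control replicate 1 the medians were -1.16 and -1.17.

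Basal keratinocytes, 11 genes, had 10.16 and 10.07 in the controls, 9.90 to 10.10 in the PUVA 3D and 10.06 to 10.21 in the PUVA 7D arrays, so control replicate 2 did not stand apart in this list. Leukocyte markers, 23 genes, had 7.18 and 7.20 in the controls, 7.23 to 7.39 in the PUVA 3D and 7.13 to 7.28 in the PUVA 7D arrays. The 8 fibroblast genes had 10.92 and 11.41 in the controls, 11.26 to 11.87 in the PUVA 3D and 10.89 to 11.31 in the PUVA 7D arrays, and the 13 sebocyte genes 10.30 and 10.05, 9.46 to 10.12 and 9.97 to 10.11. The part of hair follicle cells and melanocytes in the mitosis gene differences was not tested.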

How the data were processed

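Skin RNA was labelled with the Affymetrix WT PLUS kit after a miRNeasy extraction with DNase digest, per the labels' protocols. The authors deposited log2 values for 41345 probe sets on 10 arrays; the log base is taken from the values' range, and the normalization is not given in the sources used here. No batch is named. Each sample title carries a number, and that of control replicate 2 is well above those of the other arrays. What these numbers stand for is not given in the labels. The platform annotation gave 23521 probe sets with 1 symbol, 1814 with several, and 16010 rows are unnamed here, which left 22180 genes with no filter on dim signal. Of 210 list entries 196 were measured, some through a synonym in the RefSeq table.

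A limma model (version 3.58.1, R 4.3.3) with a mean per group and 1 spread per gene was fitted to the 10 arrays and moderated by eBayes with 7 residual and 3.514 prior degrees of freedom. Tests were two-sided, with Benjamini-Hochberg adjustment over all genes of each comparison and a threshold of 0.05. Errors are standard errors of that fit. Where 1 control is left out, the fit gives the remaining one the spread of the PUVA groups, so only sizes and directions of those differences are read. Counts by p from those fits are printed beside the shares of all genes as description, not as a test. The members and lists were chosen with earlier results of these data known. All members may be named. Values in every array follow a rule: a set given by role, the 5 smallest p in each comparison, and the 3 genes with the controls closest and farthest apart. In the other lists genes with the smallest p were named, with Cdkn1a, Ccnd1 and Pcna. Alternatives were a filter, mean probe sets, 2 normalizations, eBayes settings, array weights, only the groups compared, and each array left out. The scripts were tested on simulated data. Replicates are numbered in sample order and pair nothing.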

Additional observations from a re-analysis of the deposited data

Results flagged for a closer look

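In 80 checks of a PUVA group of 4 arrays, for 39 genes and their mean in both groups, 1 array was far from the other 3: PUVA 7D replicate 4 in Tpx2, at 7.39 against 7.60 to 7.63. Chance flags about 1 in 20 such checks.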

How the results depend on the processing

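No paired analysis was possible because the labels give no replicate numbers that the groups share. The comparisons with control turn on which control is used. Over the fits that leave out 1 array, the median log2 difference ran from -0.64 to -0.08 in PUVA 3D and from -0.64 to -0.13 in PUVA 7D skin, the count at an unadjusted p under 0.05 from 0 to 30 and from 2 to 33, and the count past an adjusted p of 0.05 from 0 to 16 and from 0 to 18. The lowest and highest medians, and the highest counts, came from leaving out a control. The count lower at an unadjusted p under 0.05 in PUVA 3D skin was 19 with all arrays (4.07% of all genes). The count at that p was 12 without PUVA 3D replicate 4. The 7 other settings kept the medians within 0.03, and no mitosis gene passed an adjusted p of 0.05 in them. Between the PUVA groups, the count at an unadjusted p under 0.05 was 1 without the lowest 30% of genes, with centred arrays, with the trend and robust settings and with array weights. It was 2 with only the groups compared, or 5.13% of the 39 against 4.51% of all genes lower, and 0 to 2 with 1 array left out. Shares of all genes in the other fits of this section are not given, so these counts are not read as a result. The cause of the changes in count was not tested. Of log2 differences near 0 between the PUVA groups, Bub1b turned to 0.00 with quantile normalization and 0.01 with centred arrays, Prc1 to 0.01 and Melk to 0.02 with centred arrays, and Ect2 to -0.03 with array weights. Among the 25 genes given with every array's value, ranges with 1 array left out that crossed 0 were, in PUVA 3D skin, Cdk1 -0.85 to 0.06, Plk1 -0.64 to 0.19, Aurkb -0.77 to 0.10, Cdc20 -0.30 to 0.00, Ube2c -0.47 to 0.05, Ndc80 -0.73 to 0.04 and Kif18a -0.15 to 0.04. In PUVA 7D skin they were Plk1 -0.83 to 0.00 and Foxm1 -0.72 to 0.08. These 9 crossed without control replicate 2 only. Of the other 14 genes, refitted without each control, Ccnb2 (0.03) and Spc25 (0.09) turned in PUVA 3D skin and Anln (-0.07) in PUVA 7D skin, each without control replicate 2. Between the PUVA groups they were Prc1 -0.07 to 0.03, Ndc80 -0.12 to 0.03, Ect2 -0.06 to 0.07, Melk -0.06 to 0.04, Bub1b -0.04 to 0.02, Cenpe -0.01 to 0.06 and Tpx2 -0.07 to 0.02.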
